A study of Homo sapiens with 2 samples.

Results

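NRF-1 occupancy was examined at 9 genes that shape and clear the mitochondrial network, MFN1, MFN2, OPA1, DNM1L, FIS1, MFF, MIEF1, MIEF2 and PINK1. They were taken by name from 19794 human protein-coding genes, by a rule that uses no measured value, although earlier results of these data were known when the set was chosen. The promoter of a gene reached 1 kb to each side of every protein-coding transcript start listed in GENCODE release 44 lifted to GRCh37 (hg19). A gene was scored as occupied where an NRF-1 peak overlapped its promoter by at least 1 base. All 9 genes had a promoter peak in control cells and in AATF-depleted cells, and the peaks overlapped between conditions for all 9. OPA1 and PINK1 had the most significant peaks of the set and MFN1 the least significant, in both conditions.

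Mitochondria form a network that is remodelled by membrane fusion and division. Mitofusins join the outer membranes and OPA1 the inner membranes, while receptors on the outer membrane recruit the GTPase DRP1, encoded by DNM1L, to constrict and divide the organelle. Damaged fragments are marked for autophagy by the kinase PINK1. The transcription factor NRF-1 occupies GC-rich promoters, many of them in front of nuclear genes whose products work in mitochondria. AATF acts with transcription factors as a cofactor.

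U251, a human glioblastoma cell line in established use, received either the control siRNA (siControl) or an AATF-targeting siRNA (siAATF), which the study names as its oligonucleotide siAATF #1. The labels of both samples and the study's own account name U251, whereas the series' design text names U138. NRF-1 was immunoprecipitated by ChIPmentation, in which a transposase adds the sequencing adapters on the precipitated chromatin, with no input or IgG library named in the sources. The protocol speaks of duplicates, but 1 peak list per condition was analysed here, labelled replicate 1, so no difference between conditions has a replicate check and none was tested.

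There were 18014 siControl and 18454 siAATF peaks, and the lowest −log10 q was 1.03 and 1.02, so weak peaks were kept. Read depth was unknown. Each peak carries a fold enrichment over the background of its own library and a −log10 q for its significance. Fold enrichments were not compared between lists. Peaks were instead placed by their percentile rank within the list they came from, where 0 is the weakest and 100 the strongest, by fold enrichment unless stated otherwise.

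The promoters of the 3 fusion genes are shown first, since they ran from the strongest to one of the weakest peaks of the set. The sequence searched was the NRF-1 core, the 5 bases GCGCA followed directly by their reverse complement, on both strands. Each stretch below covers the 250 bases before the most upstream coding start of the gene, on the plus strand of GRCh37, which is the coding strand of all 3. Capitals mark the exact core in OPA1 (chr3:193310683-193310932), the SP/KLF word GGGCGGG on the opposite strand in MFN2 (chr1:12039988-12040237) and the ETS word CCGGAAG, once on each strand, in MFN1 (chr3:179065247-179065496).
OPA1: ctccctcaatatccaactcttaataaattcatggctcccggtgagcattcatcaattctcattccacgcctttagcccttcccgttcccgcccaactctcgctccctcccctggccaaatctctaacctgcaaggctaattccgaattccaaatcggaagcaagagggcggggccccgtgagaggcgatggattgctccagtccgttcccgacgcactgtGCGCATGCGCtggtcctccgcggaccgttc
MFN2: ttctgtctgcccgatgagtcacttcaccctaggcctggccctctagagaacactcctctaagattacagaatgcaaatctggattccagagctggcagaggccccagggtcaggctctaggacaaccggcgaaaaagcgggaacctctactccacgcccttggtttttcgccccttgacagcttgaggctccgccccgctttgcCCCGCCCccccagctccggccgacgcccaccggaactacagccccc
MFN1: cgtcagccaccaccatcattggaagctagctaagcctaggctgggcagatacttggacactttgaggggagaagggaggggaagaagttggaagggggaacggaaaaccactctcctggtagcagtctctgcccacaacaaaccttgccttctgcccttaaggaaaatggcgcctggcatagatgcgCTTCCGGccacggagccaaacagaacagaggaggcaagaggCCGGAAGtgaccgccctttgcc
The OPA1 stretch held the core without a mismatch, at −30 from that start. The closest match differed from the core at 3 bases in the MFN1 stretch and at 4 bases in the MFN2 stretch. Counted on both strands, 2 SP/KLF words in the OPA1 stretch and 1 NF-Y word, CCAAT, in the MFN1 stretch are not marked.

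DNM1L, FIS1 and MIEF1 had no match with fewer than 2 mismatches. Their closest matches are shown because their peaks were more significant than those of MFN1, MFN2, MFF and MIEF2. A closest match at 2 mismatches was common, being found in 44.24% of siControl promoter peaks with sequence. These matches therefore do not show where NRF-1 was bound. Each line gives 30 bases on the strand of the gene, with the 10 bases aligned to the core in capitals. Substitutions are written as the base of the core, its position from 1 at the 5′ end, and the base of the site. The OPA1 site is chr3:193310893-193310922. DNM1L had a site at chr12:32831989-32832018 with C2A and A5C, a site at chr12:32832125-32832154 with C8G and G9C, and a site at chr12:32832468-32832497 with A5C and T6A. On the minus strand, FIS1 had a site at chr7:100888439-100888468 before its canonical start, with C2A and A5C, and a site at chr7:100895683-100895712 near its upstream start, with G3T and A5C. The MIEF1 site was chr22:39898516-39898545, with G1T and C10G.
OPA1: gacgcactgtGCGCATGCGCtggtcctccg
DNM1L site a: cctttgactaGAGCCTGCGCagcatcccag
DNM1L site b: ctccctcgcaGCGCATGGCCtgccgggagg
DNM1L site c: gcccactcccGCGCCAGCGCccactcccgc
FIS1, canonical start: gggaccggccGAGCCTGCGCactagcgccc
FIS1, upstream start: gcctagggtgGCTCCTGCGCagatgccttg
MIEF1: tgccggcgccTCGCATGCGGcccggagtca
DNM1L site a and the FIS1 site at the canonical start carried the same substitutions, C2A and A5C. These sites lay at −236 and −96 from the canonical starts of the 2 genes.

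Promoter occupancy of the set was complete in both lists. A promoter peak was present for 9 of 9 genes in siControl, beside 61.1% of all coding genes, and for 9 of 9 in siAATF, beside 60.7%. Overlapping promoter peaks in both lists were present for 9 of 9 genes, beside 59.4% of all coding genes. With a −log10 q of at least 5 required, 8 genes were occupied in siControl and 7 in siAATF, beside 51.5% of all coding genes in siControl and 51.5% in siAATF. MFN1 was below that level in both lists and MFF only in siAATF, where its −log10 q of 4.98 lay just under the cutoff. Each gene had 1 promoter peak, except FIS1, which had 2, so each list held 10. No other peak lay inside any of the 9 gene bodies in either list. The median rank of the 9 genes was 77.5 in siControl and 75.8 in siAATF, against 63.4 and 64.4 for all genes with a promoter peak. The peaks had a median width of 915 bp and 861 bp, against 854 bp and 866 bp over all such genes, and a median GC content of 65.05% and 64.6%, against 67.7% and 67.2%.

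**Figure D1:**
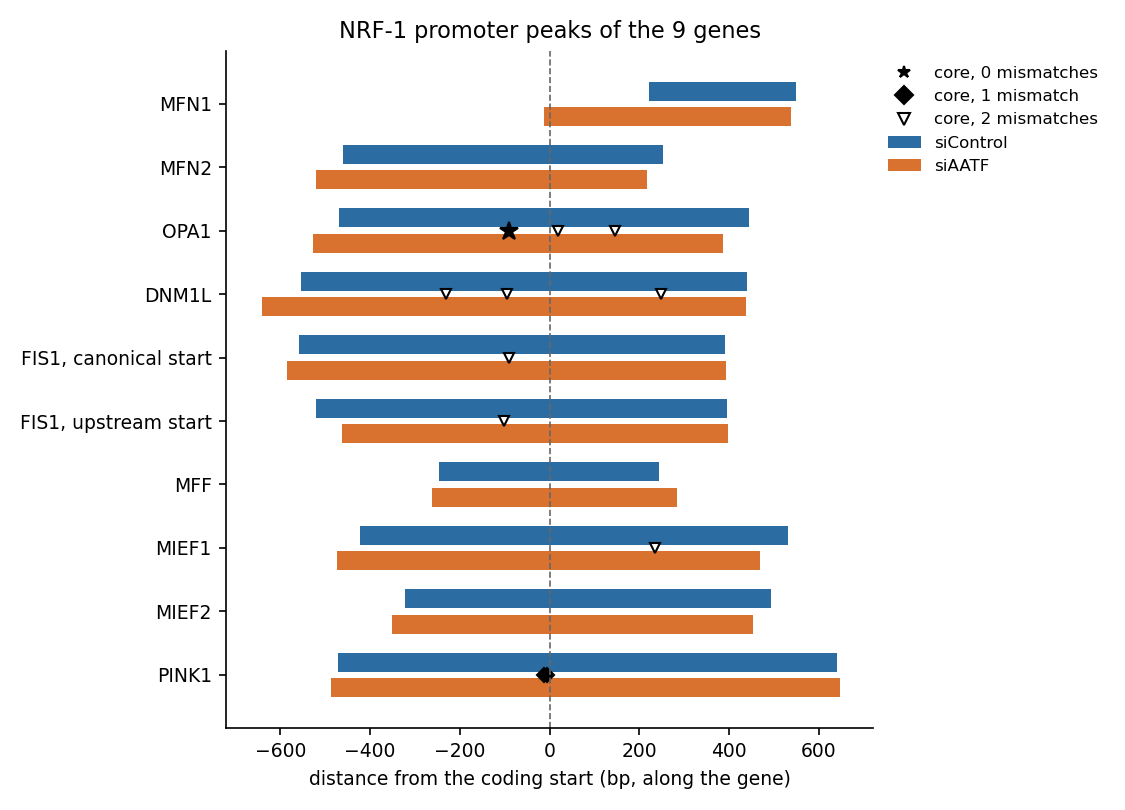
Extent of the NRF-1 promoter peak of each gene in siControl (blue) and siAATF (orange) as distance in bp from the canonical coding start, negative values lying upstream. FIS1 is drawn at its canonical and its upstream start, and symbols mark matches to the core with up to 2 mismatches (star, no mismatch; diamond, 1; triangle, 2). The siControl peak of MFN1 is the only one that does not reach the start drawn.

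Among the fusion genes, OPA1 had the strongest peak and MFN1 one of the weakest of the set. OPA1, the inner-membrane GTPase that also keeps cristae closed, had a siControl peak at chr3:193310528-193311442 with a fold enrichment of 9.23 and a −log10 q of 88.4. In siAATF the OPA1 peak was at chr3:193310469-193311383 with a fold enrichment of 8.69 and a −log10 q of 81.9. Its rank was 93.2 and 93.3, the highest of the set in both lists. The peak was 915 bp wide in each list, spanned the canonical start and the whole of exon 1, and contained 9 of the 12 coding starts of the gene. It also contained the start of a transcript of ATP13A4, a coding gene on the opposite strand, at −97 from the OPA1 start, and that of the pseudogene EEF1A1P23 at −118. The peak cannot be assigned to 1 of these genes.

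MFN2, a mitofusin that also tethers mitochondria to the endoplasmic reticulum, had a peak at chr1:12040040-12040754 in siControl with a fold enrichment of 7.81, a −log10 q of 18.98 and a rank of 77.5. In siAATF it was at chr1:12039980-12040719 with a fold enrichment of 8.43, a −log10 q of 25.2 and a rank of 90.8. The peak covered 11 of 11 coding starts in both lists, and it was the only one of the fusion genes whose rank differed between the lists by more than 2 points by either measure. The start of a long non-coding RNA on the opposite strand, ENSG00000287384, lay within it at −317.

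MFN1, the other mitofusin, had a narrow and weak peak. In siControl it was 328 bp wide, at chr3:179065718-179066045, with a fold enrichment of 4.51, a −log10 q of 3.24 and a rank of 27.95. In siAATF it was 550 bp wide, at chr3:179065485-179066034, with a fold enrichment of 4.31, a −log10 q of 3.08 and a rank of 26.1. The siControl peak began 221 bp inside the gene and missed exon 1, while the siAATF peak reached 12 bp upstream of the canonical start and spanned exon 1. Of the 5 coding starts of MFN1, 1 lay inside the siControl peak and 2 inside the siAATF peak. Both ETS words of the MFN1 stretch shown above lay upstream of both peaks.

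The fission genes spanned most of the range of the set. DNM1L, which encodes the cytosolic GTPase that constricts mitochondria, had a peak at chr12:32831681-32832675 in siControl with a fold enrichment of 8.36, a −log10 q of 53.4 and a rank of 84.7. In siAATF the DNM1L peak was at chr12:32831595-32832672, with a fold enrichment of 7.27, a −log10 q of 42.3 and a rank of 75.8. It covered 12 of 13 coding starts in each list, and the siAATF peak contained 92.0% of its own length in common with the siControl peak. All 3 DNM1L sites shown above lay inside both peaks.

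FIS1, an outer-membrane anchor linked to fission and mitophagy, was occupied at both of its groups of coding starts, 7235 bp apart on the minus strand. At the upstream start the siControl peak, at chr7:100895202-100896118, had a fold enrichment of 8.71, a −log10 q of 64.3 and a rank of 88.6. The siAATF peak there, at chr7:100895200-100896060, had a fold enrichment of 8.24, a −log10 q of 63.8 and a rank of 88.6. At the canonical start the rank was 80.9 in siControl (chr7:100887971-100888921, fold enrichment 8.06, −log10 q 64.0) and 76.2 in siAATF (chr7:100887970-100888948, fold enrichment 7.31, −log10 q 56.4). The peak at the upstream start thus had the higher fold enrichment in both lists and stood for FIS1 in the ranks below, whereas in siControl the 2 peaks had nearly the same −log10 q.

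MFF, the main outer-membrane receptor for DRP1, had a narrow peak centred on its start. It was 490 bp wide in siControl (chr2:228189721-228190210), with a fold enrichment of 6.13, a −log10 q of 6.71 and a rank of 54.6. In siAATF it was 547 bp wide (chr2:228189705-228190251), with a fold enrichment of 5.21, a −log10 q of 4.98 and a rank of 43.8. The peak held 17 of 18 coding starts of MFF and also the start of the divergent long non-coding RNA MFF-DT, at −25.

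MIEF1 and MIEF2 encode MiD51 and MiD49, related adaptors that recruit DRP1 to the outer membrane. Their peaks differed widely in strength. MIEF1 had a peak at chr22:39897872-39898826 in siControl with a fold enrichment of 8.59, a −log10 q of 57.5 and a rank of 87.4. In siAATF it was at chr22:39897822-39898764, with a fold enrichment of 8.01, a −log10 q of 54.2 and a rank of 86.0. MIEF2 had the lowest fold enrichment of the set in both lists. It was 4.02 in siControl (chr17:18163653-18164470, −log10 q 9.41, rank 17.99) and 4.27 in siAATF (chr17:18163624-18164429, −log10 q 11.3, rank 25.2). By −log10 q MIEF2 stood higher, at rank 48.9 and 55.5. Its peak was 818 bp and 806 bp wide, and covered 6 of 6 coding starts.

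PINK1, the kinase that phosphorylates ubiquitin and Parkin on depolarised mitochondria, had the widest peak of the set in both lists. It was 1113 bp wide in siControl, at chr1:20959480-20960592, with a fold enrichment of 7.38, a −log10 q of 80.6 and a rank of 71.6. In siAATF it was 1135 bp wide, at chr1:20959463-20960597, with a fold enrichment of 6.87, a −log10 q of 72.3 and a rank of 70.1. PINK1 therefore stood far higher by significance, at ranks 96.6 and 96.7, than by fold enrichment. Its single coding start lay within both peaks. A pair of overlapping matches to the core with 1 mismatch each began at −16 and −10 from that start.

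**Figure D2:**
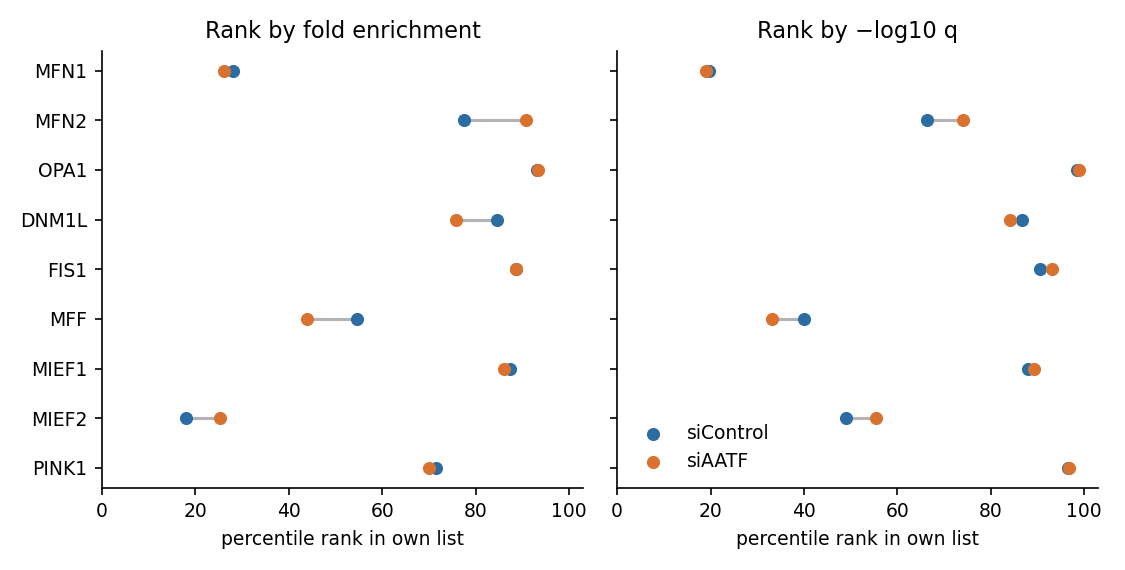
Percentile rank of the promoter peak of each gene in its own list, by fold enrichment (left) and by −log10 q (right), in siControl (blue) and siAATF (orange). OPA1 lies above 90 on both scales, MFN1 lies below 30 on both, and PINK1 and MIEF2 stand higher by −log10 q than by fold enrichment.

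The second comparison asked how the ranks differed between siAATF and siControl. None of the 9 genes moved by more than 20 points, beside 6.55% of the 11774 coding genes with a promoter peak in both lists. The median difference, siAATF minus siControl, was −1.42 points over the 9 genes, with 4 higher and 5 lower, against 0.157 points over all such genes (quartiles −4.70 and 5.53). The median absolute difference was 1.89 points, against 5.12 over all such genes. MFN2 was higher by 13.3 points and MIEF2 by 7.23, while MFF differed by −10.8 points and DNM1L by −8.87. A difference at least as large as that of MFN2 was seen for 17.05% of all such genes, and one at least as large as that of MFF for 23.7%. MFN1 differed by −1.89, PINK1 by −1.56, MIEF1 by −1.42, FIS1 by 0.0501 and OPA1 by 0.0371 points.

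Ranked by −log10 q, the median difference was 0.436 points, with 6 genes higher and 3 lower, against 0.467 over all such genes (quartiles −2.07 and 3.30). The median absolute difference was then 2.51 points, close to the 2.72 over all such genes, unlike by fold enrichment. By this measure MFN2 differed by 7.77, MIEF2 by 6.58, MFF by −6.85 and DNM1L by −2.51 points. Of the 9 genes, MIEF1 (1.09) and PINK1 (0.0430) had another direction by this measure than by fold enrichment. Within the fusion genes MFN2 and MFN1, and within the fission genes MIEF2 and MFF, lay on opposite sides of 0, and no difference between roles was tested. With 1 list per condition the size of these differences has no error.

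**Figure D3:**
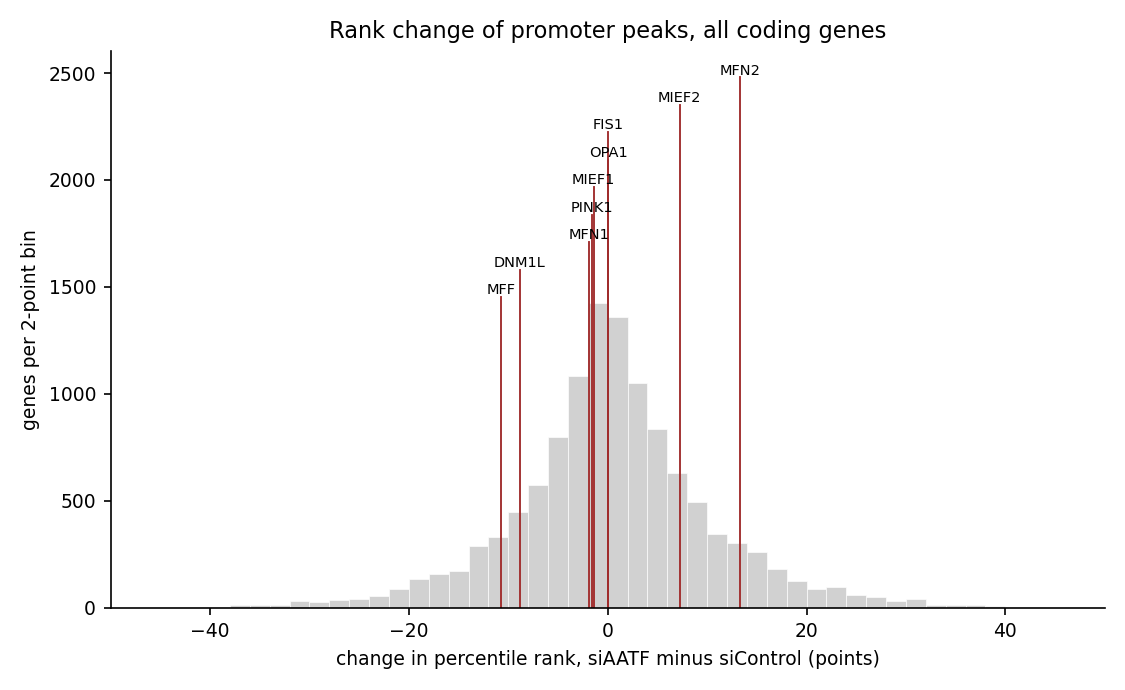
Number of coding genes by difference in the percentile rank of the promoter peak between siAATF and siControl, in bins of 2 points (grey), with lines for the 9 genes. The horizontal axis is cut at −50 and 50 points, the height of a line only separates the labels, and all 9 lines lie between MFF at −10.8 and MFN2 at 13.3.

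The third comparison set the sequence of the peaks beside their strength. A match to the core with at most 1 mismatch lay in the promoter peak of 2 of the 9 genes in siControl, beside 23.9% of all genes with a promoter peak, and of the same 2 in siAATF, beside 24.0%. These were OPA1, with the exact core, and PINK1. The fewest mismatches anywhere in the peak were 2 for DNM1L, FIS1 and MIEF1 and 3 for MFN1, MFN2, MFF and MIEF2, and were the same in both lists. In siControl the −log10 q was 88.4 for OPA1 and 80.6 for PINK1, between 53.4 and 64.3 for the 3 genes at 2 mismatches, and between 3.24 and 18.98 for the 4 genes at 3. In siAATF the corresponding values were 81.9, 72.3, 42.3 to 63.8 and 3.08 to 25.2. The order of the genes by mismatches thus matched their order by −log10 q in both lists, with no overlap between the classes. This order held for the search of the whole peak only. In the 300 bases around the peak midpoint MIEF1 had 3 mismatches, and its −log10 q, 57.5 in siControl and 54.2 in siAATF, was above that of DNM1L at 2 mismatches, 53.4 and 42.3. The order was seen in the data and then described, and it was not tested. Peak width split the 9 genes in the same way. In siControl the peaks of the genes with at most 2 mismatches were 915 to 1113 bp wide. Those of the 4 genes at 3 were 328 to 818 bp wide. The siAATF widths were 861 to 1135 bp and 547 to 806 bp, so in these genes mismatches and width cannot be told apart.

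Over all promoter peaks with sequence, the median −log10 q also fell from class to class. In siControl the median −log10 q was 71.7 over 396 promoter peaks with the exact core, 64.6 over 2047 at 1 mismatch, 16.9 over 4718 at 2 and 7.57 over 3503 at 3 or more. Peak width moved with the class, with medians of 1048, 994, 863 and 666 bp, and a wider peak offers more positions for a match. DNM1L, FIS1 and MIEF1 lay above the upper quartile of their class, 31.6 in siControl and 30.1 in siAATF, and MFN2 above that of its class, 15.4 and 14.97. By fold enrichment the order was weaker. All 5 genes with up to 2 mismatches exceeded every gene at 3 by −log10 q, but by fold enrichment 4 of the 5 did in siControl and 1 did in siAATF. Over all siControl promoter peaks the median fold enrichment was 7.804 with the exact core, 7.996 at 1 mismatch, 6.639 at 2 and 5.651 at 3 or more. In siAATF it was likewise lower with the exact core, 7.339, than at 1 mismatch, 7.512.

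**Figure D4:**
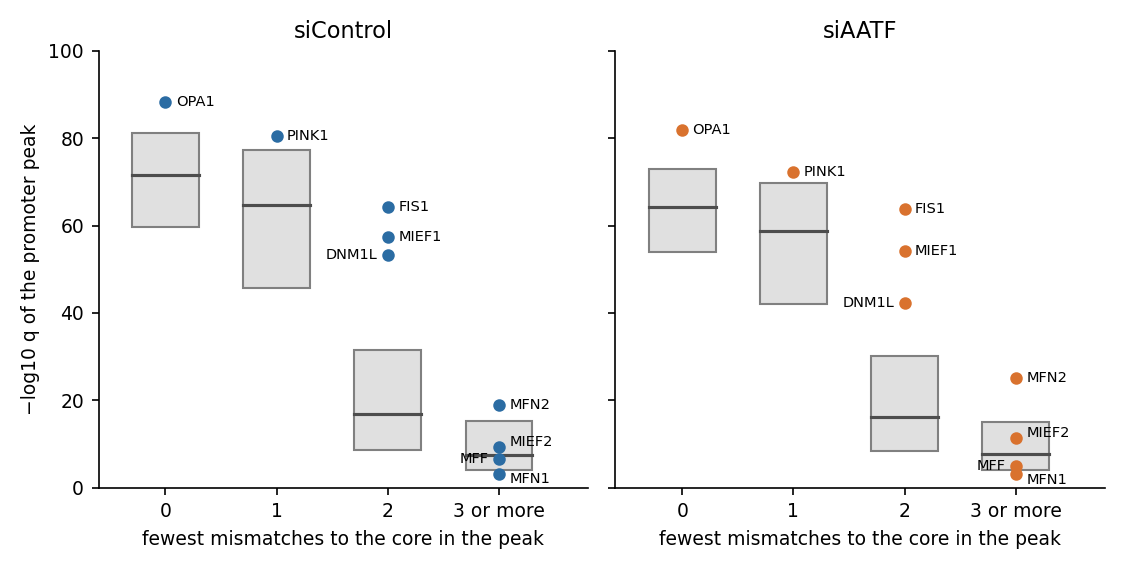
The −log10 q of the promoter peak against the fewest mismatches to the core within the peak, for the 9 genes (points) and for all promoter peaks (boxes from the lower to the upper quartile, line at the median), in siControl (left) and siAATF (right). OPA1 and PINK1 top both panels, and MFN1, MFN2, MFF and MIEF2 lie lowest.

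Words of other promoter factors were counted in the 300 bases from 250 before to 50 after the canonical start, on both strands, over 19514 coding genes. The exact core was in 1.71% of these windows, OPA1 among them, and the core with up to 1 mismatch in 10.6%, OPA1 and PINK1 among them. The ETS word CCGGAAG was in the windows of MFN1, FIS1 and MIEF1, and in 14.1% of all windows. The SP/KLF word GGGCGGG was in those of OPA1, FIS1, MIEF1, MIEF2 and PINK1, and in 47.6% of all. The NF-Y word CCAAT was in those of MFN1, OPA1, DNM1L, MFF, MIEF1 and MIEF2, and in 36.0% of all. The CRE word TGACGTCA (2.71% of all windows) and the YY1 word ATGGCGG (7.86%) were in none of the 9. MFN2 held none of these words near its canonical start, and the SP/KLF word in its stretch shown above lay further upstream. A match describes letters only and does not show a bound factor.

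The wider pathway was described with 56 other genes, 14 for fusion, 13 for fission and 29 for mitophagy. Each gene was counted under a single role, with OMA1, MARCHF5 and PARL, which cleaves PINK1, among the fusion genes. In each list 48 of the 56 had a promoter peak with a −log10 q of at least 5, beside 51.5% of all coding genes. A promoter peak of any strength was present for 56 of 56 in siControl, beside 61.1% of all coding genes. In siAATF it was present for 55 of 56, beside 60.7%. The exception was USP30, a deubiquitinase that opposes Parkin, whose siControl peak was weak (rank 13.1, −log10 q 2.07) and whose nearest siAATF peak lay 31258 bp away. The median rank was 70.15 in siControl and 71.9 in siAATF, against 63.4 and 64.4 for all genes with a promoter peak. In siControl 14 of the 56 genes had the core with up to 1 mismatch in their promoter peak, beside 23.9% of all genes with one. In siAATF 14 of the 55 did, beside 24.0%. The pathway genes thus held the core about as often as all such genes. The highest ranks in siControl were those of TOMM7 (97.6), a translocase subunit that stabilises PINK1, YME1L1 (97.6), a protease that cleaves OPA1, and GDAP1 (97.1), an outer-membrane fission factor. The lowest were those of STOML2 (6.33), an inner-membrane scaffold, INF2 (11.97), a formin that promotes fission at the endoplasmic reticulum, and USP30.

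Over the 55 other genes with a peak in both lists, the median difference in rank was 0.461 points, with 30 higher and 25 lower. A difference of more than 20 points was seen for 4 of them (7.27%), against 6.55% over all coding genes. CALCOCO2, an autophagy receptor, went from rank 48.7 in siControl to 76.4 in siAATF, and PARL, the protease that cleaves PINK1, from 44.9 to 68.9. MUL1, an outer-membrane ubiquitin ligase, went from rank 39.3 to 3.96, with a −log10 q of 4.44 and 1.26. AMBRA1, an autophagy regulator, went from rank 41.7 to 19.3, with a −log10 q of 5.09 and 2.58. Ranked by −log10 q, of these 4 genes only MUL1 differed by more than 20 points (−28.4). CALCOCO2 then differed by 16.2, PARL by 14.4 and AMBRA1 by −18.5 points. All 4 peaks lay in the middle or lower part of the list in siControl. By role, the median difference was 1.33 points for the other fusion genes (10 higher, 4 lower), −3.76 for fission (4 higher, 9 lower) and 0.818 for mitophagy (16 higher, 12 lower). The quartiles over all coding genes, −4.70 and 5.53, describe single genes, so they give no range for a median over a role. Ranked by −log10 q, the 3 medians were 0.955, −1.18 and 0.488 points. No difference between these roles was tested.

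**Figure D5:**
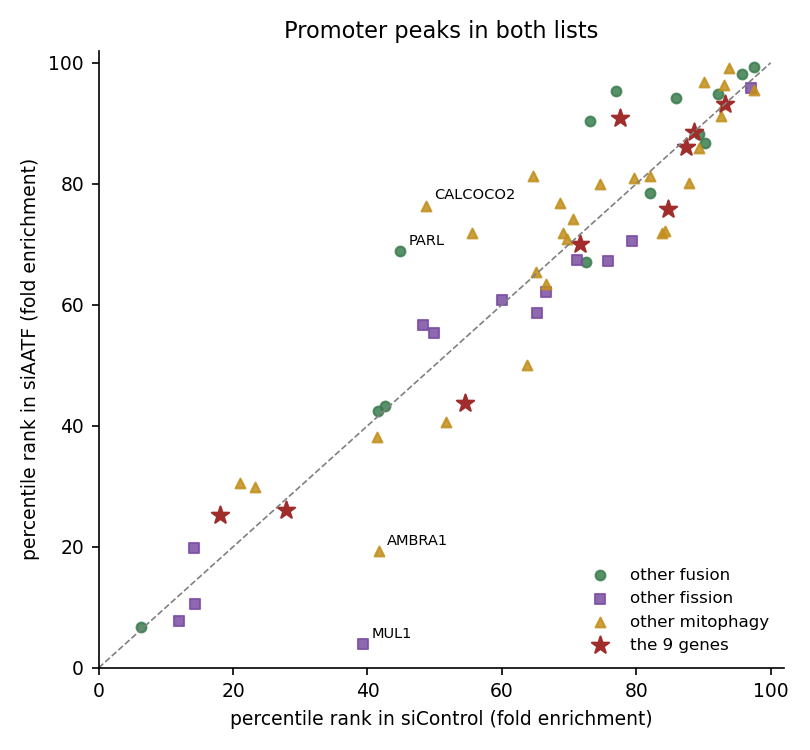
Percentile rank by fold enrichment in siControl (horizontal) and siAATF (vertical) for the 9 genes (stars) and the other fusion (circles), fission (squares) and mitophagy genes (triangles) with a promoter peak in both lists. The dashed line marks equal rank, and the named genes CALCOCO2, PARL, MUL1 and AMBRA1 differ by more than 20 points.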

How the data were processed

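NRF-1 peaks in U251 cells were analysed from 1 broadPeak list each for siControl and siAATF. Per the submitters' processing notes and the study's methods, the authors aligned reads to hg19 with Bowtie2 and called peaks with MACS2 in the nf-core ATAC-seq pipeline at default settings. Whether duplicates were pooled was not stated. The authors deposited, for each peak, the position, a display score that was not used, a fold enrichment over the local background (a ratio), and the −log10 p and −log10 q. No read counts were given, so depth was unknown and no interval was computed.

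Peaks were joined to GENCODE release 44 on GRCh37 with Python 3.11.15, numpy 2.4.6 and pandas 2.3.3, and plotted with matplotlib 3.10.9. Where a gene had several promoter peaks, the one with the highest fold enrichment was used. Percentile ranks averaged ties. Peak sequences were read from the GRCh37 primary assembly, and 132 siControl and 122 siAATF peaks on other contigs were left out of sequence work. Overlap, ranks and motif search were tested on simulated data. The members and gene lists were chosen with earlier results of these data known. Named were the 9 members, coding genes starting inside their peaks and, of 56 other pathway genes, those with a peak in 1 list, the 3 highest and 3 lowest in siControl, and those that moved by more than 20 points. Other transcripts starting inside the peaks were named after their values had been seen. Alternatives are given in the closing section.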

Additional observations from a re-analysis of the deposited data

How the results depend on the processing

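No paired analysis was possible because each condition had a single list. Promoters of 500 bp or 2 kb, canonical starts alone and a −log10 q of at least 5 kept the numbers of occupied genes, members and others, within 1.5 times. Among the 10000 strongest peaks, occupied members numbered 7 in siControl, 6 in siAATF and 6 in both, at the limit of 1.5 times, and other genes 44 and 43. With 50% reciprocal overlap, run for the members alone, 9 were occupied in both lists. No share of all coding genes was set beside the counts of either setting, so they are not compared with a general rate. Ranks moved more. Ranked by −log10 q, the median rank was 86.6 in siControl and 84.1 in siAATF, and the median difference turned from −1.42 to 0.436 points, with MIEF1 (1.09) and PINK1 (0.0430) changing direction. Ranked among peaks with a −log10 q of at least 5, which leaves out MFN1, and MFF in siAATF, the medians were 72.15 and 79.1 and the median difference −0.187, with OPA1 (−0.0998) and FIS1 (−0.187) changing direction. With the peak nearest to the canonical start, the median difference was −1.56 and that of FIS1 −4.67, since its other peak was then used. With the exact core required, 1 gene rather than 2 held it.

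The search of the 300 bases around each peak midpoint and the order by fold enrichment were chosen after seeing the data. In those bases 4 genes rather than 5 had a match with up to 2 mismatches, MIEF1 being lost. MIEF1 then stood above DNM1L by −log10 q despite more mismatches, so the classes overlapped in both lists. By fold enrichment 4 genes in siControl and 1 in siAATF, rather than 5, exceeded every gene at 3 mismatches. Other causes were not tested. Depth was unknown, and without replicates a rank difference of a few points has no error.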
